A study of Mus musculus with 40 samples.

Results

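The 20 arrays described here set exposure to a high fat (HF) diet only after weaning against exposure only through the dam, out of 40 arrays of whole pancreas from male C57BL/6J mice, 1 array per animal. They were chosen by 2 labels, the diet of the dam and the diet of the animal. LF_HF mice had dams on a low fat (LF) diet and ate the HF diet after weaning (10 animals from 4 birth cages). HF_LF mice had dams on the HF diet and ate the LF diet after weaning (10 animals from 5 birth cages). The other 20 arrays were HF_HF mice, on the HF diet through the dam and afterwards, and LF_LF mice, never on it (10 each). The HF diet was rich in fat and low in carbohydrate, the LF diet the reverse, with coconut oil as the main fat and the same protein in both. Dams were on their diet from before mating until weaning, and the offspring were killed at 9 weeks of age after a short fast.

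Both diets differ between LF_HF and HF_LF, so a difference between them cannot be assigned to the dam or to the later diet by this comparison alone. HF_HF and LF_LF mice differ in both diets as well, but with the dam and the later diet in step, and they share no animal with the first comparison. A gene that follows only the later diet has the same sign in both comparisons, and a gene that follows only the dam diet has opposite signs. Where both diets act and their effects add up, the signs show only which effect is larger. Cage mates from LF dams were split between LF_HF and LF_LF (2 shared cages) and those from HF dams between HF_LF and HF_HF (3 shared cages), so the comparisons are not fully independent. No cage held both LF_HF and HF_LF mice. Cage and dam diet therefore cannot be separated.

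Most of the pancreas is made of acinar cells, which make and secrete digestive enzymes and carry one of the heaviest loads of protein synthesis in the body. Islets, which hold the cells that make insulin and glucagon, and ducts form the small remainder. Acinar cells respond to a shortage of amino acids or to misfolded protein through the integrated stress response, in which the factor ATF4 switches on genes for amino acid supply and stress adaptation. One of its targets in acinar cells is Fgf21, a secreted hormone. The whole tissue was measured, so fewer cells of a type and less RNA per cell cannot be told apart.

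The animals differed in size on the day they were measured. The second weight in the labels averaged 30.3 ± 1.86 g in LF_HF mice and 23.7 ± 1.81 g in HF_LF mice (SD, n = 10 each; two-sided permutation test, adjusted p = 0.00015), and the lightest LF_HF mouse (27.2 g) was heavier than the heaviest HF_LF mouse (25.8 g). The labels tie this weight to weaning, but its size is that of an adult. At 3 weeks the order was the other way round. LF_HF mice then weighed 9.18 ± 1.00 g and HF_LF mice 10.9 ± 0.836 g (SD, n = 10 each; adjusted p = 0.0013 by permutation), and 9 of 10 LF_HF mice lay below the HF_LF median. LF_HF mice were also longer by 4.3 mm (permutation test, adjusted p = 0.000367). Blood glucose averaged 222 ± 29.3 mg/dl in LF_HF mice and 194.0 ± 24.05 mg/dl in HF_LF mice (SD, n = 10 each; adjusted p = 0.0319 by permutation), with 8 of 10 LF_HF mice above the HF_LF median. With 1 mean per cage (4 against 5), an exact permutation test gave an adjusted p = 0.0952 for glucose and 0.0397 for the weights and the length. The p-values were adjusted over 5 measures.

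**Figure D1:**
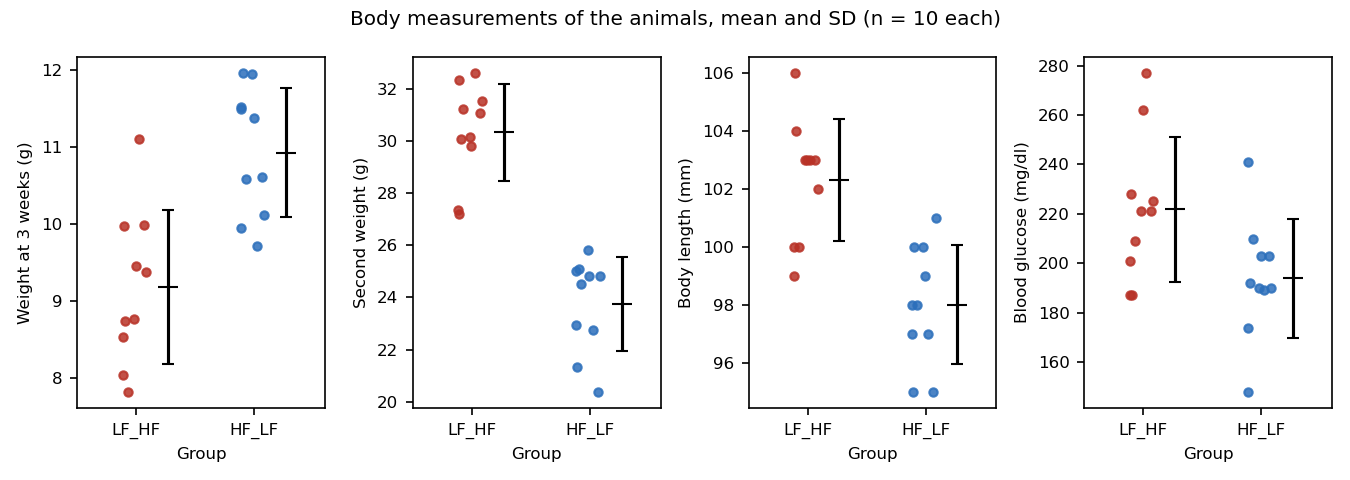
Body measurements of LF_HF mice (left in each panel) and HF_LF mice (right). Each point is 1 animal, the bar with caps is the mean with its SD, and the axes give g, mm and mg/dl. The second weights of the groups do not overlap, and the weights at 3 weeks lie the other way round.

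A total of 829 of 12246 tested probes (6.77%) were differentially expressed between LF_HF and HF_LF (limma, Benjamini-Hochberg adjusted p under 0.05), 440 higher and 389 lower in LF_HF. With 1 probe per gene, 637 of 8858 genes were called (7.19%), of which 363 rose (4.1%) and 274 fell (3.09%). Differences were small: 604 of the called probes differed by less than 1.2-fold, 21 by more than 1.5-fold and 2 by more than 2-fold, those of Fgf21 and Reg2. The arrays of LF_HF and HF_LF did not overlap at all in 41 probes (0.335% of those tested), and the cage means did not overlap in 880 probes (7.19%), 549 of them among the 829. Between HF_HF and LF_LF only 3 probes were called (0.0245%), those of Fgf21, which rose, and of Nrp1 and Vsig2, which fell.

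The count depended on how animals were grouped. With the cage as a random block 585 probes were called, and with 1 mean per cage 93. Leaving out 1 cage gave 309 (without cage 11, 3 LF_HF mice) to 804 calls, with 417 without cage 10 and 537 without cage 4. Weight and group cannot be told apart, since the second weights did not overlap: with this weight as a covariate limma called 0 probes, and 1065 had an unadjusted p under 0.05, against 2492 without it. The arrays LF_HF 1 and HF_LF 4 stood apart in liver genes, with a mean over 16 hepatocyte genes that lay 2.84 and 1.18 log2 units above the average array. Without both, 687 probes were called, 626 of them among the 829. Of the 88 called genes named by rule or as list members, 13 lost their call with the cage block, 61 with 1 mean per cage and 16 without both arrays.

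Signals below are linear intensities, given as the lowest, the median and the highest of the 10 arrays of a group. Background was not subtracted, and the median signal of an array was about 63, so values near it are close to the floor and folds of weak genes are compressed. Differences are LF_HF minus HF_LF on the log2 scale with the standard error, and p-values come from limma after Benjamini-Hochberg adjustment.

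Genes of the integrated stress response were higher in LF_HF. Of 17 tested genes, targets of ATF4 and Atf4 itself, 6 rose (35.3%, against 4.1% of all genes) and none fell. All 17 had a positive difference, with a list median of 0.24 against 0.00 over all genes. This list, like the others, was chosen with earlier results of these data known, so its share is a description. Fgf21 had the largest increase of any called gene. Its signal was 208, 271 and 604 in LF_HF and 83.4, 139.8 and 257 in HF_LF, a 2.07-fold difference (log2 1.05 ± 0.21, adjusted p = 0.00312). All LF_HF arrays were above the HF_LF median, although the top HF_LF arrays reached into the LF_HF range. Atf5, a transcription factor that is itself controlled by the stress response, had 393, 569.7 and 662 in LF_HF and 184, 332 and 561 in HF_LF (log2 0.77 ± 0.14, adjusted p = 0.00181). Again every LF_HF array was above the HF_LF median, and the ranges overlapped.

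Nupr1, a small nuclear stress protein strongly induced in the injured pancreas, was among the brightest genes of the array. It had 16901, 19002 and 23979 in LF_HF and 9163, 13248 and 14729 in HF_LF (log2 0.58 ± 0.08, adjusted p = 9.5e-05). The groups did not overlap. Ndrg1, a gene responsive to stress and hypoxia, had 409, 455 and 504 in LF_HF and 287, 322 and 369 in HF_LF (log2 0.48 ± 0.06, adjusted p = 3.44e-05), also without overlap. Stc2, a secreted glycoprotein, and Vldlr, a lipoprotein receptor, rose by 0.36 ± 0.08 and 0.36 ± 0.09 (adjusted p = 0.0107 and 0.0136). Both calls were lost without cage 9 or cage 11, and that of Vldlr without cage 23 as well (adjusted p up to 0.0693 for Stc2 and 0.0941 for Vldlr).

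Other members did not pass. Chac1, an enzyme that degrades glutathione, differed by 0.97 ± 0.31, nearly as much as Fgf21, but varied widely, with 456, 945 and 1812 in LF_HF and 179, 604 and 1162 in HF_LF (adjusted p = 0.0577). The factors Atf4 and Ddit3 themselves differed by 0.16 ± 0.09 and 0.24 ± 0.10 (adjusted p = 0.331 and 0.171), and the asparagine synthetase gene Asns by 0.24 ± 0.09 (adjusted p = 0.0941). Without LF_HF 1 and HF_LF 4, 8 members rose, with the cage as a random block 6, and with 1 mean per cage 2 (Nupr1 and Ndrg1), where Fgf21 and Atf5 had an adjusted p of 0.0766 and 0.0804. Without cage 9 or cage 11 the count was 4. In HF_HF against LF_LF, all 17 members again had a positive difference (median 0.21), and Fgf21 was called there too, at 185, 264 and 392 in HF_HF and 75.7, 130.1 and 183 in LF_LF (log2 1.17 ± 0.15, adjusted p = 0.000755). LF_HF and HF_HF medians of Fgf21 were nearly equal (271 and 264), as were those of HF_LF and LF_LF (139.8 and 130.1).

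ATF4 and its partners bind a composite site known as the amino acid response element. Its core, TGATGCAA or the reverse complement TTGCATCA, was searched on both strands of the 250 bases before each RefSeq gene start (GRCm38.p6). It was found for 52 of 7186 tested genes with a promoter entry (0.724%; 0.576% of 9200 windows). Of the 14 stress response genes with an entry, 5 held it, 3 of which rose. The windows of these genes are shown on the coding strand with the core in capitals, since they hold the element through which the group is known to respond. A match of letters does not show that a factor was bound.
Fgf21 (chr7:45615592-45615659, minus strand): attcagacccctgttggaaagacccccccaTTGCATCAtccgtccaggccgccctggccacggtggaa
Nupr1 (chr7:126625543-126625610, minus strand): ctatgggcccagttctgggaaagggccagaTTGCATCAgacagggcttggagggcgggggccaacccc
Vldlr (chr19:27216790-27216857, plus strand): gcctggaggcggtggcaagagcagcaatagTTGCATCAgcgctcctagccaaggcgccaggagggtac
Chac1 (chr2:119351019-119351086, plus strand): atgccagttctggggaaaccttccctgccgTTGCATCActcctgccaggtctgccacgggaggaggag
Slc7a11 (chr3:50443623-50443690, minus strand): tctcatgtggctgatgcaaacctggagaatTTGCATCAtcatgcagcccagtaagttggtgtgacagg

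The first 3 windows belong to genes that rose, and the core began 139, 110 and 200 bases before the start in Fgf21, Nupr1 and Vldlr. It began 193 bases before the start of Chac1. Slc7a11, the cystine transporter, carries a further copy in the opposite orientation that is left in lower case. Its signal was near the floor, 61.3, 76.6 and 91.0 in LF_HF and 64.8, 72.1 and 91.1 in HF_LF (log2 0.03 ± 0.07, adjusted p = 0.835). Among all genes with an entry, the core stood before 5 of 300 that rose (1.67%) and 0 of 216 that fell. The 2 besides Fgf21, Nupr1 and Vldlr were Chchd10 and Rhot2, both for mitochondrial proteins, which rose by 0.38 ± 0.11 and 0.22 ± 0.06 (adjusted p = 0.038 and 0.0176). With 1 open base, TGATGNAA, a form that includes the first, the motif stood before 2.88% of genes with an entry, 15 of 300 that rose (5%) and 5 of 216 that fell (2.31%). The E-box CACGTG, the element of the clock factors and of MYC, stood before 10% of genes, 27 of 300 that rose (9%) and 29 of 216 that fell (13.4%). The calls of Chchd10 and Rhot2 were lost without 6 and without 3 of the 9 cages, and that of Chchd10 without LF_HF 1 (adjusted p = 0.0538).

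**Figure D2:**
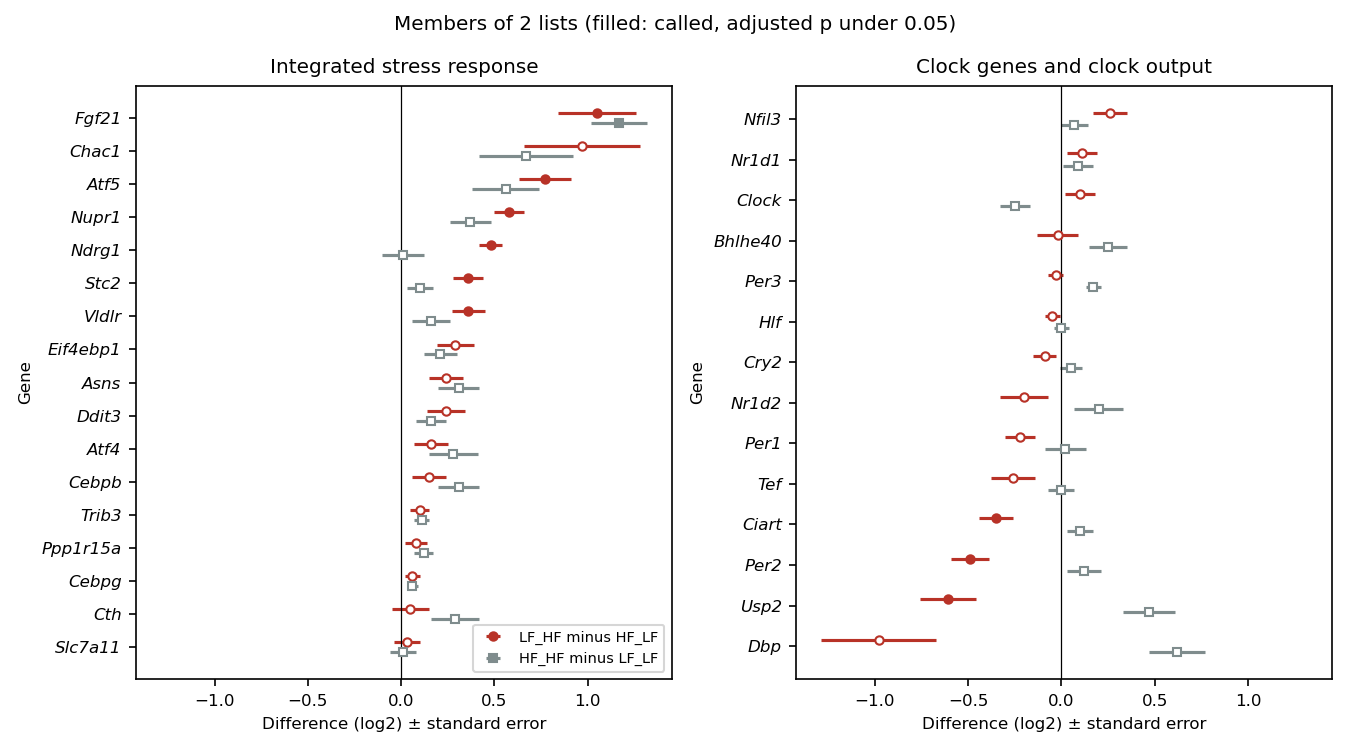
Differences (log2, with standard errors) of the members of 2 lists, the integrated stress response and the clock genes. Red circles are LF_HF minus HF_LF, grey squares HF_HF minus LF_LF, and filled symbols passed an adjusted p of 0.05. All stress response members lie right of 0 in both comparisons, while Usp2 and Dbp lie on opposite sides of 0 in the 2 comparisons.

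Genes for the supply of amino acids and one-carbon units were higher as well. Of 19 tested, 5 rose (26.3%, against 4.1% of all genes), none fell and 18 had a positive difference (median 0.13). Aldh18a1, which makes the precursor of proline, had 249, 302 and 341 in LF_HF and 182, 236 and 287 in HF_LF (log2 0.39 ± 0.08, adjusted p = 0.00309). Mat1a, the source of S-adenosylmethionine in liver and pancreas, had 636, 796 and 1115 in LF_HF and 374, 557 and 766 in HF_LF (log2 0.55 ± 0.13, adjusted p = 0.0116). For both genes every LF_HF array was above the HF_LF median and the ranges overlapped. Mat1a is also a liver gene, and its call held without LF_HF 1 and HF_LF 4 but was lost without cage 23 (adjusted p = 0.0624) and in a fit of all 40 arrays (0.0682). Shmt2, the mitochondrial serine hydroxymethyltransferase, and Cbs, the first enzyme of transsulfuration, rose by 0.25 ± 0.06 and 0.30 ± 0.07. Gamt, which makes creatine, rose by 0.26 ± 0.08. The call of Shmt2 was lost without cage 11 (adjusted p = 0.0756) and that of Cbs without cage 9 or 23 (0.0731 and 0.0534) or in the fit of 40 arrays (0.0823). That of Gamt was lost without 7 of the 9 cages (up to 0.169), with the cage block (0.085) and in the fit of 40 arrays (0.223). With 1 mean per cage no member passed (limma; 5 without this averaging).

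Slc38a5, a glutamine transporter of acinar cells, was in none of the lists. It had 2905, 3247 and 3741 in LF_HF and 1747, 2290 and 2732 in HF_LF (log2 0.58 ± 0.07, adjusted p = 9.5e-05), and the groups did not overlap. Of 17 aminoacyl-tRNA synthetases, which load amino acids on their tRNAs, only Gars rose (5.88%, against 4.1% of all genes). Its difference was 0.31 ± 0.08 (adjusted p = 0.0167), and its call was lost without cage 10, 11 or 23 (up to 0.0923). Of 18 genes of the unfolded protein response, Creld2 rose and Pdia3 fell (11.1% called, against 7.19% of all genes). Creld2, inducible by stress of that compartment, had 383, 533 and 744 in LF_HF and 329, 367 and 395 in HF_LF (log2 0.50 ± 0.10, adjusted p = 0.00334). Pdia3, a disulfide isomerase, had 446, 480 and 562 in LF_HF and 531, 564 and 592 in HF_LF (log2 -0.21 ± 0.05, adjusted p = 0.00917). Both pairs of ranges overlapped.

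**Figure D3:**
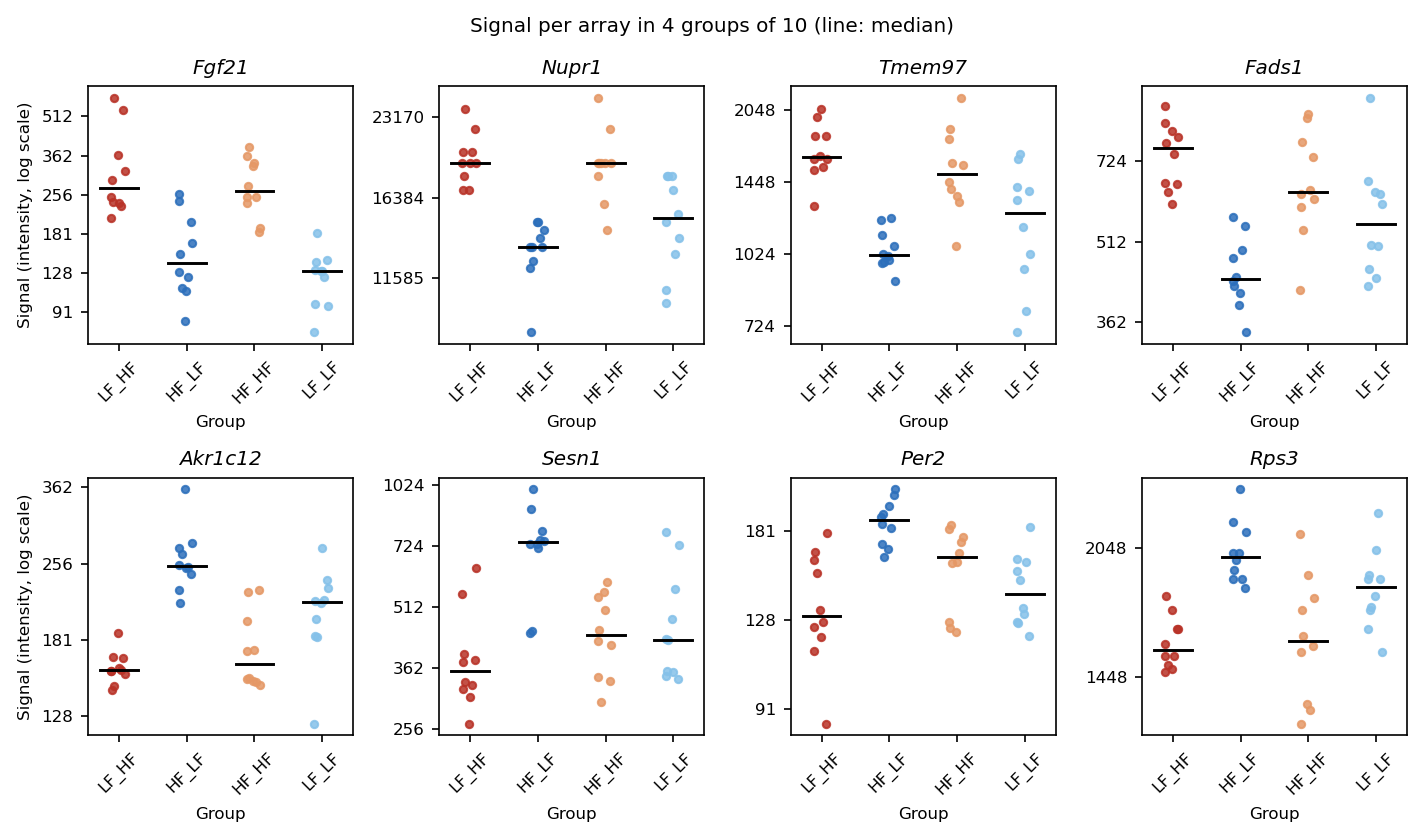
Signal of 8 genes on each array (log scale), for LF_HF, HF_LF, HF_HF and LF_LF from left to right, with the median of each group as a line. Nupr1, Tmem97, Fads1, Akr1c12 and Rps3 show no overlap between LF_HF and HF_LF, and Fgf21, Sesn1 and Per2 show some.

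Several factors that set acinar identity rose in LF_HF, and no enzyme gene was called. Of 14 tested genes for acinar transcription factors and secretion, 5 rose (35.7%, against 4.1% of all genes) and 1 fell (7.14%, against 3.09%). Of 21 digestive enzymes none was called (limma; median 0.02), and 12 were higher. Ptf1a, a master factor of acinar cells, had 287, 476 and 698 in LF_HF and 211, 311 and 405 in HF_LF (log2 0.63 ± 0.15, adjusted p = 0.0112). Rbpjl, its acinar partner, had 1869, 2408 and 3025 in LF_HF and 1402, 1819 and 2308 in HF_LF (log2 0.38 ± 0.08, adjusted p = 0.00769). The ranges of both overlapped. Gata6 and Nr5a2, 2 further factors, rose by 0.19 ± 0.05 and 0.21 ± 0.07, and Rab3d, a GTPase of the enzyme granules, by 0.18 ± 0.05. Vamp8, a fusion protein of those granules, fell to 440.1, 471 and 537 in LF_HF, against 529, 577 and 665 in HF_LF (log2 -0.30 ± 0.05, adjusted p = 0.00107), with a small overlap. The other probe of Rbpjl and that of Vamp8 had the same sign as the probe shown but were not called.

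Several of these calls were not stable. Ptf1a was lost without cage 11 (adjusted p = 0.0841), Gata6 without cage 4 or 10 (0.0581 and 0.0535), Rab3d without 4 cages (up to 0.0876) and Nr5a2 without 7 cages (up to 0.187). Rab3d did not pass in a fit of all 40 arrays either (0.186). Nr5a2 was also lost without LF_HF 1 (0.0614) or HF_LF 4 (0.0781), and 1 of its 2 other probes had the opposite sign. The count of members that rose in this list, to which Rab3d belongs, was 4 without LF_HF 1 and HF_LF 4, 2 without cage 10 or 11 and 0 with 1 mean per cage. The enzyme genes lie near the top of the signal scale. Cpa1, for carboxypeptidase A1, had 20957, 25819 and 28885 in LF_HF and 22019, 25029.8 and 26399.6 in HF_LF (log2 0.02 ± 0.05, adjusted p = 0.849).

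Reg2 showed the largest fall. The Reg genes code for secreted lectins that acinar cells release in injury and regeneration. Reg2 had 2395, 10689 and 28885 in LF_HF and 11333, 23817 and 35588 in HF_LF, 2.6-fold lower in LF_HF (log2 -1.38 ± 0.34, adjusted p = 0.0161). The highest value is the top of the whole table and was reached by 2 HF_LF arrays, so the fold may be compressed. The ranges overlapped widely, and the cage means of LF_HF ran between 11.55 and 13.86 on the log2 scale, those of HF_LF between 13.74 and 14.95. The call was lost without cage 23 (adjusted p = 0.0716) and in a fit of all 40 arrays (0.0696). Of the 7 tested Reg genes, 6 were lower (median -0.49), and Reg3a differed by -1.14 ± 0.44 without passing (adjusted p = 0.131). Reg genes are close copies of each other, as are the glandular kallikreins, and a probe may bind several. Of 8 kallikreins only Klk1b11 fell (12.5%, against 3.09% of all genes). It differed by log2 -0.66 ± 0.19 (adjusted p = 0.0364), and its call was lost without 6 of the 9 cages (up to 0.14) and without LF_HF 1 (0.051).

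Tmem97 and single genes of sterol and unsaturated fatty acid synthesis rose in LF_HF. Tmem97, a membrane protein that sterol shortage induces, had 1291, 1636 and 2066 in LF_HF and 899, 1023 and 1222 in HF_LF (log2 0.68 ± 0.07, adjusted p = 1.22e-05). Fads1, the delta-5 desaturase that makes arachidonic acid, had 601, 764 and 917 in LF_HF and 347, 436 and 569 in HF_LF (log2 0.72 ± 0.09, adjusted p = 4.42e-05). Neither gene had any overlap between the groups. Of 17 genes of the cholesterol synthesis list, Tmem97 and Fdps rose (11.8%, against 4.1% of all genes) and 15 had a positive difference (median 0.06). Tmem97, not itself a synthesis enzyme, was counted in this list, and Fdps was the only other call. Tmem97 and Fdps passed under every cage left out, in the cage block and on cage means. Fdps did not pass in a fit of all 40 arrays (adjusted p = 0.0861). Fdps, which makes farnesyl diphosphate, had 158, 177 and 200.1 in LF_HF and 132, 147 and 172 in HF_LF (log2 0.25 ± 0.05, adjusted p = 0.00453), with some overlap.

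Of 16 genes of fatty acid synthesis, Fads1 and Scd2 rose (12.5%, against 4.1% of all genes). Scd2, a stearoyl-CoA desaturase, was near the floor (0.15 ± 0.04, adjusted p = 0.0255) and was lost without 5 of the 9 cages (up to 0.0741). Its relative Scd1 had 133, 321 and 2084 in LF_HF and 129, 225 and 1270.1 in HF_LF (adjusted p = 0.448). Tecr, which completes fatty acid elongation and was chosen after its values were seen, had 331, 353 and 369.9 in LF_HF and 232, 283 and 309 in HF_LF (log2 0.35 ± 0.05, adjusted p = 0.000392), with no overlap. Of 21 genes of fatty acid oxidation, 15 had a negative difference (median -0.08), and only Acaa2, the last enzyme of mitochondrial beta-oxidation, fell (4.76%, against 3.09% of all genes; -0.22 ± 0.06, adjusted p = 0.0251; lost without 5 of the 9 cages, up to 0.0768).

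**Figure D4:**
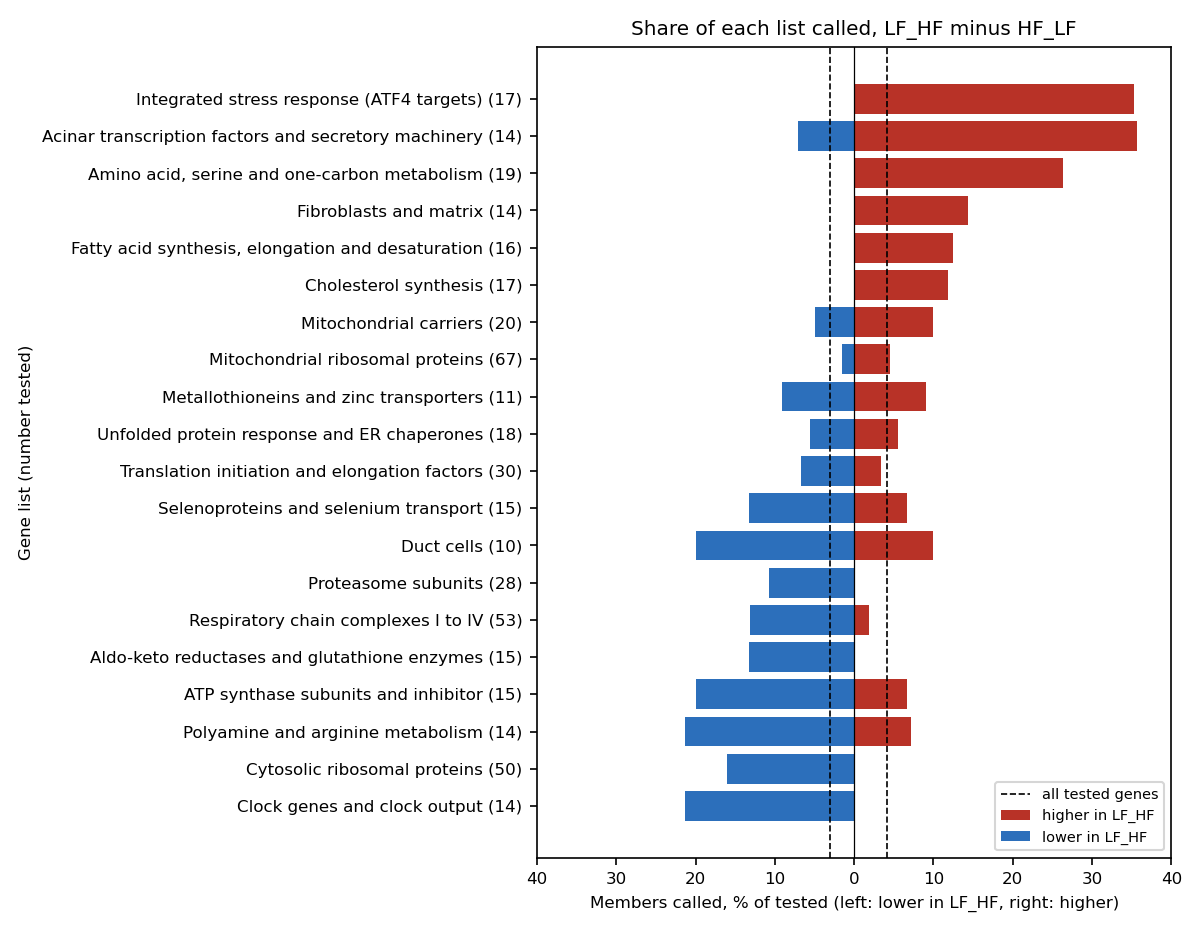
Share of tested members called in LF_HF minus HF_LF, for the lists with at least 7 tested genes and at least 2 called. Bars to the right (red) are members higher in LF_HF, bars to the left (blue) lower, and the dashed lines are the shares over all tested genes (4.1% and 3.09%). The stress response (35.3%), the acinar factors (35.7%) and amino acid genes (26.3%) extend furthest to the right.

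Several genes for ribosomes, proteasomes and the respiratory chain fell in LF_HF. Of 50 cytosolic ribosomal protein genes, 8 fell (16%, against 3.09% of all genes), none rose and 37 had a negative difference (median -0.05). Rps3, of the small subunit, had 1468, 1556 and 1799 in LF_HF and 1839, 1998 and 2395 in HF_LF (log2 -0.35 ± 0.05, adjusted p = 0.000573). Rpl12, of the large subunit, had 3915, 4602 and 4874 in LF_HF and 5072, 5527 and 6479 in HF_LF (log2 -0.30 ± 0.05, adjusted p = 0.000855). The groups did not overlap in either gene. The other probe of Rps3 was lower too but was not called. The remaining 6, Rpl13a, Rpl22, Rpl23a, Rpl34, Rps9 and Rpl30, fell by 0.21 to 0.31 on the log2 scale. Ribosomal protein genes have many processed copies in the genome, and a probe may also read these. The count was 7 without LF_HF 1 and HF_LF 4, 5 without cage 10, 4 without cage 11 and 1 with cage means.

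Of 67 genes for mitochondrial ribosomal proteins, 3 rose and 1 fell (5.97% called, below the 7.19% of all genes). The list median was -0.02. Mrpl49, which rose, passed under every cage left out, but Mrpl37 was lost without 3 cages, Mrpl28 without 7 and Mrps33, which fell, without 8 (adjusted p up to 0.101, 0.131 and 0.135). With the cage block Mrpl28 and Mrps33 did not pass (0.0684 and 0.0565). Among 28 proteasome subunits, Psmb7, Psmd12 and Psma7 fell (10.7%, against 3.09% of all genes) and 23 had a negative difference (median -0.06). Psmb7, a catalytic subunit, had 247, 325 and 365 in LF_HF and 352, 402 and 489.7 in HF_LF (log2 -0.36 ± 0.07, adjusted p = 0.00342), with a small overlap. Psmd12 was lost without cage 11 (adjusted p = 0.0664), and Psma7 without 4 cages (up to 0.104) and without LF_HF 1 (0.0534). Of 30 translation factors, 3 were called (10%, against 7.19% of all genes). The helicase gene Eif4a1 fell (-0.27 ± 0.06, adjusted p = 0.00841) and the elongation factor gene Eef1g rose (0.24 ± 0.05, adjusted p = 0.0086). Eif5 fell too but was lost without cage 1, 10 or 11 (adjusted p up to 0.173). The other probe of Psmd12 and that of Eif4a1 were lower too but were not called.

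In the respiratory chain, 7 of 53 genes fell (13.2%, against 3.09% of all genes) and 1 rose (1.89%, against 4.1%). The list median was 0.00. Those that fell coded for subunits of complex I (Ndufs4, Ndufv2, Ndufa5, Ndufa6 and Ndufc2) and complex III (Uqcrc2 and Uqcrh). Ndufs4 had 400, 455 and 532 in LF_HF and 498, 570 and 689.5 in HF_LF (log2 -0.33 ± 0.06, adjusted p = 0.0031). Its 3 other probes were lower too, but none was called. Ndufa10, also of complex I, rose, with 474, 514 and 582 in LF_HF and 368, 439.5 and 469 in HF_LF (log2 0.27 ± 0.05, adjusted p = 0.00297). Its groups did not overlap, so called subunits of 1 complex lay in both directions. With 1 mean per cage the calls of Ndufa10, Ndufv2 and Ndufa5 were lost (adjusted p = 0.104, 0.0955 and 0.0968). With cages blocked, averaged or left out, or without LF_HF 1 and HF_LF 4, 1 to 8 members of the list fell and 0 or 1 rose. Of 15 genes of the ATP synthase and its inhibitor, 3 fell (20%, against 3.09% of all genes) and 1 rose (6.67%, against 4.1%). Atpif1, the inhibitor, had 662, 739 and 919.5 in LF_HF and 872, 1043 and 1245 in HF_LF (log2 -0.46 ± 0.08, adjusted p = 0.000873), and Atp5l and Atp5pb, of its membrane stalk, fell by 0.37 and 0.31 on the log2 scale. These 3 falls were called with the cage block, on cage means and under every cage left out. Atp5d, which rose by 0.16 ± 0.05, was lost without 6 cages (up to 0.116) and without HF_LF 4 (0.0509).

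Some clock genes fell in LF_HF. Of 14 clock genes and clock outputs, 3 fell (21.4%, against 3.09% of all genes), none rose and 11 had a negative difference (median -0.15). Per2, a repressor of the core clock, had 85.6, 130.2 and 179.8 in LF_HF and 164, 189 and 213 in HF_LF (log2 -0.49 ± 0.10, adjusted p = 0.00354). Usp2, a deubiquitinase under clock control, had 129, 193 and 352 in LF_HF and 212, 295 and 373 in HF_LF (log2 -0.61 ± 0.15, adjusted p = 0.0146). Ciart, another repressor, fell by 0.35 on the log2 scale (adjusted p = 0.0183). All 3 ranges overlapped. Dbp, an output factor of the clock, varied the most, with 124, 663 and 1277 in LF_HF and 725, 1005 and 1504 in HF_LF (log2 -0.98 ± 0.31, adjusted p = 0.0573). In HF_HF against LF_LF, 12 of the 14 had a positive difference (median 0.10), with Usp2 at 0.47 ± 0.14 and Dbp at 0.62 ± 0.15, neither called (adjusted p = 0.314 and 0.15). Usp2 was lost without cage 11 or 23 (adjusted p = 0.0841 and 0.0537) and Ciart without cage 4, 10 or 11 (up to 0.101). With 1 mean per cage no clock gene passed. The hour of death of each animal was not given in the sources used here, and its part in these differences was not tested.

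Sesn1, Akr1c12, Selenop, Rbm3 and Ivns1abp were further genes that fell strongly in LF_HF. Sesn1, a sestrin that senses leucine and is a target of p53 and FoxO factors, had 263, 355 and 639 in LF_HF and 441, 741 and 1001 in HF_LF (log2 -0.91 ± 0.15, adjusted p = 0.00092). The 2 LF_HF mice of cage 14 had the highest LF_HF values (552 and 639), and the other 8 lay below every HF_LF array. Akr1c12, an aldo-keto reductase, had 144, 158 and 187 in LF_HF and 214, 253 and 359 in HF_LF (log2 -0.70 ± 0.07, adjusted p = 3.37e-06). It had the smallest p of all probes, and its groups did not overlap. Selenop, which carries selenium in plasma, had 624, 829 and 946 in LF_HF and 878, 1314 and 2211 in HF_LF (log2 -0.73 ± 0.12, adjusted p = 0.000829). Rbm3, an RNA-binding protein induced by cold, had 122, 164 and 198 in LF_HF and 179.6, 252 and 339 in HF_LF (log2 -0.67 ± 0.11, adjusted p = 0.000625). The ranges of Selenop and of Rbm3 overlapped slightly, and the other probe of Selenop was lower too but was not called. Ivns1abp, a kelch protein, had 279, 370.1 and 401 in LF_HF and 429, 555 and 661 in HF_LF, with no overlap (log2 -0.59 ± 0.08, adjusted p = 0.000118), and a second probe of it fell too.

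Fkbp5, a chaperone of the glucocorticoid receptor that glucocorticoids induce, had 60.5, 91.1 and 124 in LF_HF and 105, 147 and 207 in HF_LF (log2 -0.66 ± 0.13, adjusted p = 0.00334). Hk2, a hexokinase, had 112, 135 and 188 in LF_HF and 174, 199.8 and 319 in HF_LF (log2 -0.64 ± 0.10, adjusted p = 0.000625). In both, all LF_HF arrays lay below the HF_LF median. Bex2, from a family of X-linked genes, had 128, 188 and 276 in LF_HF and 218, 329 and 505 in HF_LF (log2 -0.74 ± 0.14, adjusted p = 0.00309), and its 2 other probes fell as well.

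Genes of polyamine breakdown were among those that fell. Of 14 genes of polyamine and arginine metabolism, 3 fell (21.4%, against 3.09% of all genes) and 1 rose (7.14%, against 4.1%). Smox, a spermine oxidase, had 240.4, 281 and 297.9 in LF_HF and 298.1, 347 and 417 in HF_LF (log2 -0.31 ± 0.06, adjusted p = 0.00263), just without overlap. Sat1, which acetylates polyamines for breakdown, had 274, 347 and 425 in LF_HF and 377, 451 and 607 in HF_LF (log2 -0.42 ± 0.09, adjusted p = 0.00457), and Arg2, a mitochondrial arginase, fell by 0.46 on the log2 scale (adjusted p = 0.000855). Odc1, the first enzyme of polyamine synthesis, rose by 0.24 ± 0.07, but this call was lost without 7 of the 9 cages (adjusted p up to 0.161) and without HF_LF 4 (0.0664). The 3 falls were called under every cage left out, but Smox and Sat1 were lost with 1 mean per cage (adjusted p = 0.0701 and 0.0852).

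Among transporters, Slc25a45, a mitochondrial carrier, had 182, 202 and 239 in LF_HF and 135, 149 and 172 in HF_LF (log2 0.45 ± 0.06, adjusted p = 9.5e-05). Slc39a5, a zinc importer, had 579.7, 604 and 732 in LF_HF and 395, 494 and 561 in HF_LF (log2 0.32 ± 0.06, adjusted p = 0.00224). Neither showed overlap between the groups. A second zinc and manganese importer, Slc39a8, fell by 0.27 on the log2 scale (adjusted p = 0.00841), and the carrier Slc25a35 by 0.54 (adjusted p = 0.00492; 0.0528 without cage 11). Further large increases were those of Parm1, a mucin-like membrane protein (0.65 ± 0.11), of Zfpm1, a cofactor of GATA factors (0.61 ± 0.07), and of Cbfa2t3, a corepressor (0.62 ± 0.09). Both other probes of Cbfa2t3 had the opposite sign and were not called, so this gene is uncertain.

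Few islet genes changed. Of 7 hormone genes all 7 had a negative difference (median -0.12), but only Pyy fell (14.3%, against 3.09% of all genes). Pyy, for peptide YY, had 119, 155 and 258 in LF_HF and 147, 214 and 358 in HF_LF (log2 -0.49 ± 0.14, adjusted p = 0.0354), and its call was lost without 6 of the 9 cages (adjusted p up to 0.187). Ins2, for insulin, had 4060.1, 7377 and 12455 in LF_HF and 4162, 7463 and 11739 in HF_LF (log2 -0.12 ± 0.16, adjusted p = 0.756). Gcg, for glucagon, and Sst, for somatostatin, differed by -0.30 ± 0.20 and -0.29 ± 0.16 (adjusted p = 0.414 and 0.35). The ranges of Ins2 overlapped almost fully. None of 16 genes of islet identity and glucose sensing was called by limma (median -0.02). Of 10 duct genes, 3 were called (30%, against 7.19% of all genes). The keratin Krt18 and the bicarbonate transporter Slc4a4 fell (-0.22 ± 0.06 and -0.16 ± 0.05, adjusted p = 0.0216 and 0.0382) and the water channel Aqp1 rose (0.25 ± 0.07, adjusted p = 0.032). Krt18 was lost without 4 cages (up to 0.0865) and in the fit of 40 arrays (0.0648). Slc4a4 was near the floor, with a median of 64.5 in LF_HF and 71.1 in HF_LF. It was lost without 6 cages (up to 0.217), with the cage block (0.0575) and without LF_HF 1 or HF_LF 4 (0.0654 and 0.0629). Aqp1 was lost without 6 cages (up to 0.127), in the fit of 40 arrays (0.0914) and without LF_HF 1 (0.0561). The defining duct genes Krt19 and Sox9 did not pass (adjusted p = 0.636 and 0.518).

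Markers of other cell types were uneven between single arrays. The mean over 16 hepatocyte genes ran from -0.66 to 2.84 log2 units in LF_HF, with a median of -0.16, and from -0.53 to 1.18 in HF_LF, with a median of -0.15. None of these genes was called (limma), and 13 had a positive difference (median 0.06). Adipocyte genes ran from -0.36 to 0.76 in LF_HF and from -0.38 to 0.18 in HF_LF, and 10 of 11 had a positive difference (median 0.13), none called. Myeloid genes ran from -0.31 to 0.36 in LF_HF and from -0.35 to 0.17 in HF_LF. Of 16 of them, 14 had a positive difference (median 0.12) and Fcer1g rose (6.25%, against 4.1% of all genes). Fcer1g differed by 0.26 ± 0.07 (adjusted p = 0.037). Its call was lost without 8 of the 9 cages (up to 0.117), without LF_HF 1 (0.0639), with the cage block (0.061) and in the fit of 40 arrays (0.53). All 6 genes of MHC class II had a positive difference (median 0.22), none called. Of 14 fibroblast genes, Col6a1 and Col5a1 rose (14.3%, against 4.1% of all genes). Each was lost without 7 cages (up to 0.176 and 0.192) and without LF_HF 1 or HF_LF 4. Defining markers that passed the filter were Adipoq for adipocytes, Lyz2 and Laptm5 for myeloid cells, Apoa1, Mup2 and Serpina1a for hepatocytes and none for B cells, and none of these was called. With the hepatocyte, myeloid or islet mean as a covariate, 856, 784 and 775 probes were called. The part of other cell types in single gene differences was not tested further.

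The remaining lists held at most 3 calls each, and 7.19% of all genes were called. Of 15 selenoprotein genes, Selenop and Selenof fell and Selenow rose (20%). Selenof was lost without 7 cages (adjusted p up to 0.142), with the cage block (0.0549) and without LF_HF 1 or HF_LF 4 (0.0767 and 0.0751), and Selenow without cage 11 or 23 (0.0795 and 0.0989). Of 15 aldo-keto reductase and glutathione genes, Akr1c12 and Gstt2 fell (13.3%). Among 14 genes of insulin signalling and FoxO targets only Sesn1 was called (7.14%). Among 13 immediate early genes only Egr1 was called (7.69%), which rose by 0.35 ± 0.08. Among 15 cell cycle genes it was only the cyclin Ccnd3 (6.67%), which rose by 0.23 ± 0.05. These shares lay near the 7.19% of all genes. The maintenance DNA methyltransferase Dnmt1 rose by 0.12 ± 0.03, the only call among 7 genes of DNA methylation. Its signal was near the floor, with LF_HF 4 at 74 and the other LF_HF arrays at 63.3 to 67.9. Egr1 was lost without cage 10, 11 or 23, Ccnd3 without 2 cages and Dnmt1 without 3 (adjusted p up to 0.0748, 0.0617 and 0.0565). Egr1 and Dnmt1 were also lost in the fit of 40 arrays (0.0929 and 0.0783), and Dnmt1 with no filter (0.0539). No member was called among 12 imprinted growth genes, 17 interferon-induced genes and 14 acute phase genes (limma; medians 0.02, 0.01 and 0.05).

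The second pair of groups sets the dam and the later diet in step. Of the 829 probes called in LF_HF against HF_LF, 609 (73.5%) had the same sign in HF_HF against LF_LF, against 57.4% of all tested probes, and 220 had the opposite sign. An unadjusted p under 0.05 in the second pair was reached by 8.73% of all tested probes, 787 with the same sign and 282 with the opposite one. Of the 829, 13.5% reached it, 105 with the same sign and 7 with the opposite one. The median absolute difference over all tested probes was 0.0491 in the first pair and 0.0416 in the second. Called probes were chosen by the first pair, which favours a larger first difference. Those that rose had a median of 0.22 in LF_HF minus HF_LF and 0.04 in HF_HF minus LF_LF, and those that fell had -0.22 and -0.05. Across 8858 genes the log2 differences of the pairs had a Pearson r of 0.283 and a Spearman rho of 0.232, which is a description, since genes are not independent replicates. Without LF_LF 1 and HF_HF 5, arrays high in immune cell genes, the shares with the same sign were 76.6% of the called probes and 59.1% of all.

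Lists differed in how the pairs compared. Ribosomal protein genes were lower in 37 of 50 cases in LF_HF minus HF_LF and in 38 of 50 in HF_HF minus LF_LF, with a median of -0.05 in both. Proteasome genes had a median of -0.06 in both, and amino acid genes of 0.13 in both. Fatty acid oxidation genes had medians of -0.08 and 0.04, fatty acid synthesis genes of 0.07 and -0.11, and MHC class II genes of 0.22 and -0.15. The array LF_LF 1 was the highest of its group in fatty acid synthesis (1.18 log2 units) and MHC class II (2.85). The medians of the array means in fatty acid synthesis were 0.04 in LF_LF and -0.04 in HF_HF. The difference between the pairs was not tested.

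Genes with the same sign included Mat1a, which differed by 0.55 ± 0.13 in the first pair and 0.84 ± 0.21 in the second (adjusted p = 0.153), and Rbm3, with -0.67 ± 0.11 and -0.49 ± 0.13 (adjusted p = 0.167). Nupr1 differed by 0.37 ± 0.11 in the second pair (adjusted p = 0.271) and Atf5 by 0.56 ± 0.18 (adjusted p = 0.338). None of these 4 passed there. Reg2 also had the same sign (-1.13 ± 0.51, adjusted p = 0.523).

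Other genes stood near 0 in the second pair. Sesn1 differed by -0.08 ± 0.16 there, Ndrg1 by 0.01 ± 0.11 and Hk2 by 0.08 ± 0.13. Their HF_HF and LF_LF medians lay between those of LF_HF and HF_LF, as for Hk2, which had 112, 135 and 188 in LF_HF, 174, 199.8 and 319 in HF_LF, 116, 167 and 229 in HF_HF and 110.2, 151 and 236 in LF_LF. Of the 7 probes with opposite signs and an unadjusted p under 0.05, 2 belonged to Usp2 and to Acaa2, here with a probe other than that given above (-0.19 ± 0.05 in the first pair and 0.17 ± 0.08 in the second). The other 5, chosen after their values were seen, were those of Ranbp3l, Rae1, Upf2, Hexim1 and Asb13. With 1 mean per cage all 5 lost their call in the first pair (adjusted p from 0.109 to 0.242). The calls of Upf2, Hexim1 and Asb13 were also lost without cage 4, 9, 10 or 23 (up to 0.19). With the cage block Hexim1 and Asb13 did not pass (0.0556 and 0.0684). Ranbp3l, a relative of Ran-binding proteins, had 137, 189.8 and 243 in LF_HF and 101, 138 and 169.9 in HF_LF (log2 0.48 ± 0.10, adjusted p = 0.00361), and differed by -0.29 ± 0.13 in HF_HF against LF_LF (adjusted p = 0.525). Fkbp5 differed by 0.22 ± 0.14 in the second pair (adjusted p = 0.677), with 77.0, 120.3 and 149 in HF_HF and 67.7, 91.7 and 137 in LF_LF, so that both groups from HF dams had higher medians than both groups from LF dams. None of these opposite differences passed the correction in the second pair.

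**Figure D5:**
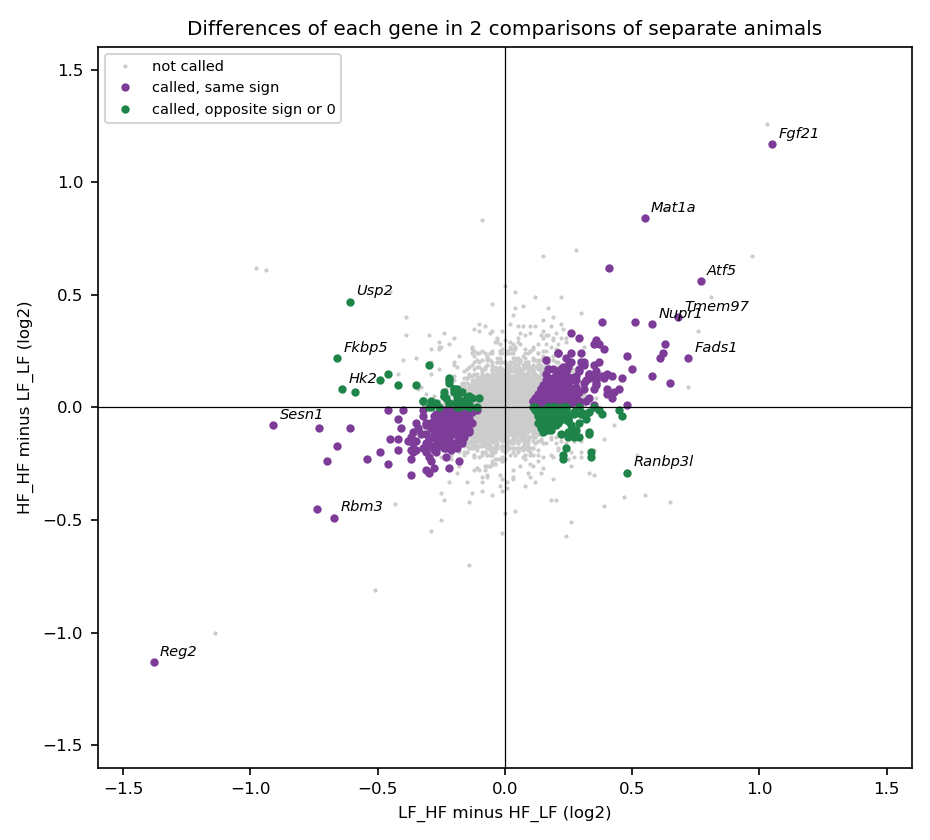
Difference of each gene in LF_HF minus HF_LF (x axis, log2) and in HF_HF minus LF_LF (y axis, log2), which share no animals. Purple points are called genes with the same sign in both, green points called genes with the opposite sign or a second difference that rounds to 0, and grey points genes not called. Fgf21, Mat1a and Atf5 lie at the upper right and Reg2 at the lower left, while Usp2 and Ranbp3l lie in the other corners.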

How the data were processed

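Each animal gave 1 beadchip of the type Illumina MouseRef-8 v2.0. The deposited table holds linear intensities that the authors exported with BeadStudio (version not given in the sources used here) and quantile normalized over the 40 arrays, without background subtraction: the lowest value was 43, array medians lay between 62.9 and 63, and arrays correlated at 0.96 to 0.991. The number of arrays limits the precision. Groups came from the labels for the diet of the dam and of the animal. Intensities were log2 transformed, and probes above their array's median in at least 20 of 40 arrays were kept (12246 of 25697, 8858 genes). Each pair of groups was fitted on its own 20 arrays with limma 3.58.1 (R 4.3.3, lmFit and eBayes with an intensity trend), with Benjamini-Hochberg adjustment over all tested probes and a threshold of 0.05. For each gene the probe with the highest mean was used, and 23978 probes had 1 gene symbol. Body measurements were compared by permutation (100000 resamples) in Python 3.11.15 with scipy 1.17.1.

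The 20 arrays and the gene lists were chosen with earlier results of these data known. Genes were named by rule: the 10 largest increases, the 10 largest falls, the 5 smallest other p-values, genes by their sign in the second pair, up to 4 called members of each list (2 where none was called), the islet hormones and up to 2 defining markers of each cell type. Other genes are said to be chosen after their values were seen or are members of a list. Promoter windows came from RefSeq (GRCm38.p6), matched by symbol for 7186 of the tested genes. Protein sequences were not used here. Alternatives were a fit of 40 arrays, no trend, a Cyber-T-like regularized test, a plain two-sample test, other normalizations, filters and background, array weights, the cage as a block or averaged, each cage left out, 2 arrays left out, cell type means and body weights as covariates. The fits were tested on simulated data. How animals were spread over chips and labelling batches is not given in the sources used here, so batch effects were not tested.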

Additional observations from a re-analysis of the deposited data

Results flagged for a closer look

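In 19 of 246 groups of 10 arrays (7.72%, where chance gives about 5%), 1 array lay far from the other 9 for a gene of the report by Dixon's criterion.

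HF_LF 9 was low in Nupr1 (9163.3 against 12088.2 to 14729.3 in the other HF_LF arrays), in Acaa2 (135.1 against 155.9 to 183.3) and in Slc25a38 (199.6 against 229.5 to 255). Nupr1 and Slc25a38 rose in LF_HF and Acaa2 fell.

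HF_LF 5 was high in Krt19, the duct keratin (215.9 against 59.5 to 75.2), in Cd74 of the MHC class II pathway (298.8 against 136.1 to 176.1), in Col6a1 (190.2 against 111.1 to 136.6) and in Akr1c12 (359.1 against 213.9 to 280.8), and low in Odc1 (771.9 against 972.1 to 1181.8).

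LF_HF 1 had 1773 in Apoa1, the apolipoprotein of liver, against 72.7 to 231.6 in the other LF_HF arrays. HF_LF 4 was high in Trf, for transferrin (321.3 against 111.4 to 188.2), and low in Ins2 (4162.4 against 6852.4 to 11738.7).

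LF_HF 10 was low in Ivns1abp (278.7 against 332 to 401.1) and Scd2 (61.4 against 70.3 to 77) and high in Slc39a5 (732.4 against 579.7 to 639.9). LF_HF 4 was high in Dnmt1 (74 against 63.3 to 67.9) and low in Gstt2 (91.2 against 105 to 119.1).

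Single arrays stood apart in Mrpl37 (HF_LF 2 at 249.2 against 272.5 to 300.6), Cpa1 (HF_LF 6 at 22018.6 against 23978.8 to 26399.6) and Ccl5 (LF_HF 6 at 84.4 against 59.6 to 71.5).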

How the results depend on the processing

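The count of probes called in LF_HF minus HF_LF (829) stayed between 585 and 965 under all settings that left out no cage but 5: it was 497 with the regularized test, 511 with no filter, 93 with 1 mean per cage, 226 with the weight at 3 weeks as covariate and 0 with the second weight. Leaving out 1 cage gave 309 to 804. HF_HF minus LF_LF (3 called) gave 40 in a fit of all arrays, 15 without the trend, 10 with cyclic loess, 63 with array weights, 10 with the cage block, 0 with 1 mean per cage (1095 with an unadjusted p under 0.05) and 1 to 17 with 1 cage left out. Calls in both pairs numbered 1 with the same sign and 0 with opposite signs, or 105 and 7 with an unadjusted p in the second. Among all tested probes, 787 and 282 had such a p in the second. Of 88 named called genes, 50 passed under all 26 settings other than cage means and the weights. All 88 lost their call with the second weight, where Ptf1a turned to -0.01, Mrpl28 to -0.04 and Slc25a38 to -0.04, and 49 with the weight at 3 weeks. The cause was not tested. With cage means the glucose difference was 27.08 mg/dl and no longer passed. With the background subtracted the list medians of cholesterol synthesis, endothelial genes and nuclear receptors were 0.12, 0.12 and 0.13. Without cage 11 that of metallothioneins was 0.04, and without cage 23 that of mitochondrial carriers 0.05. Small differences in genes near a signal of 63 are compressed by the background. No paired analysis was possible because LF_HF and HF_LF shared no birth cage, and replicate numbers only follow the order of the samples.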

Other observations

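Histone H2B genes were higher in LF_HF than in HF_LF. They were looked at after their values were seen, and they are close copies, so a probe may read several of them. Of 9 tested genes, 5 rose and none fell, against 4.1% and 3.09% of all genes, with a median difference of 0.21. In HF_HF against LF_LF 8 of the 9 were higher (median 0.24, none called). H2bc4 had 445, 563 and 749.5 in LF_HF and 322, 458 and 563 in HF_LF (log2 0.41 ± 0.11, limma adjusted p = 0.0273). The calls of H2bc4, H2bc7, H2bc11, H2bc12 and H2bc14 were each lost without 1 to 5 of the 9 cages. All 5 were also lost with 1 mean per cage (limma, adjusted p from 0.123 to 0.206).

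Between HF_HF and LF_LF, Nrp1, a coreceptor of semaphorins and VEGF, had 172, 190.4 and 241 in HF_HF and 225, 264 and 304 in LF_LF (log2 -0.41 ± 0.06, limma adjusted p = 0.00627). Vsig2, a membrane protein of the immunoglobulin family, had 67.3, 73.0 and 82.1 in HF_HF and 78.2, 99.8 and 118 in LF_LF (log2 -0.38 ± 0.07, limma adjusted p = 0.043). In LF_HF against HF_LF they differed by 0.20 ± 0.09 and -0.13 ± 0.07 (limma adjusted p = 0.186 and 0.317). Neither fall between HF_HF and LF_LF was called without cage 4, without cage 21 or with 1 mean per cage.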
